A study of Mus musculus with 4 samples.

Results

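The transcription factors that set up and maintain Th2 cells were examined in mouse Th2 cells that had or had not been exposed to SH-2251, a small synthetic compound of the thioamide type, developed to lower the output of the cytokine IL-5. The 10 genes, out of 18539 that could be named on the arrays, were chosen by name as known regulators of Th2 cells: Stat6, Gata3, Zfpm1, Maf, Batf, Irf4, Nfil3, Satb1, Bhlhe40 and Bhlhe41. They were found through the RefSeq accession of each probe, since the scanner files carry no column of gene names, and 15 probes matched, of which 13 were well above background on all 4 arrays.

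Splenic CD4 T cells of female C57BL/6J mice were stimulated through the T cell receptor and CD28 for 2 days with IL-2 and IL-4, and were then kept in these cytokines for 3 days. The 4 groups, each with 1 array, were resting control cells, resting SH-2251-treated cells, control cells restimulated for 4 h with immobilized anti-TCR-β antibody, and SH-2251-treated cells restimulated in the same way. The labels put SH-2251 at 1 µM during stimulation and at 1 mM afterwards. The study's methods give a lower dose as the default for its experiments and start the cultures from purified naïve cells, so the dose and the starting cells of these arrays are uncertain. The labels do not say whether spleens were pooled or how many cultures were made.

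Levels are log2 intensities relative to the 75th percentile of the same array, so that 0 stands for that percentile and a difference of 1 is 2-fold. Each probe is compared only with itself, because brightness differs between probes for reasons other than mRNA amount. With 1 array in each group there is no replicate and no test was made. The technical SD beside a difference is the scanner software's error estimate, which covers error within the arrays only and was 0.204 for each measured difference of the 9 brighter genes. On each array it was 0.144 or 0.145 for all of them, so it serves as a nearly fixed yardstick and not as a measured noise level. A spread measured between spots came from a Stat6 probe that is spotted 10 times on each array: its spots had an SD of 0.053, 0.060, 0.046 and 0.038 on the 4 arrays.

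In Th2 differentiation, IL-4 activates STAT6, which induces GATA-3, and GATA-3 opens the chromatin of the Il4, Il5 and Il13 genes. FOG-1, the product of Zfpm1, binds GATA-3 and restrains it. c-Maf activates Il4 transcription, BATF and IRF4 bind DNA together after T cell receptor stimulation, SATB1 folds the Th2 cytokine locus, and Nfil3, Bhlhe40 and Bhlhe41 encode factors that act on cytokine genes in Th2 and other T cells.

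**Figure D1:**
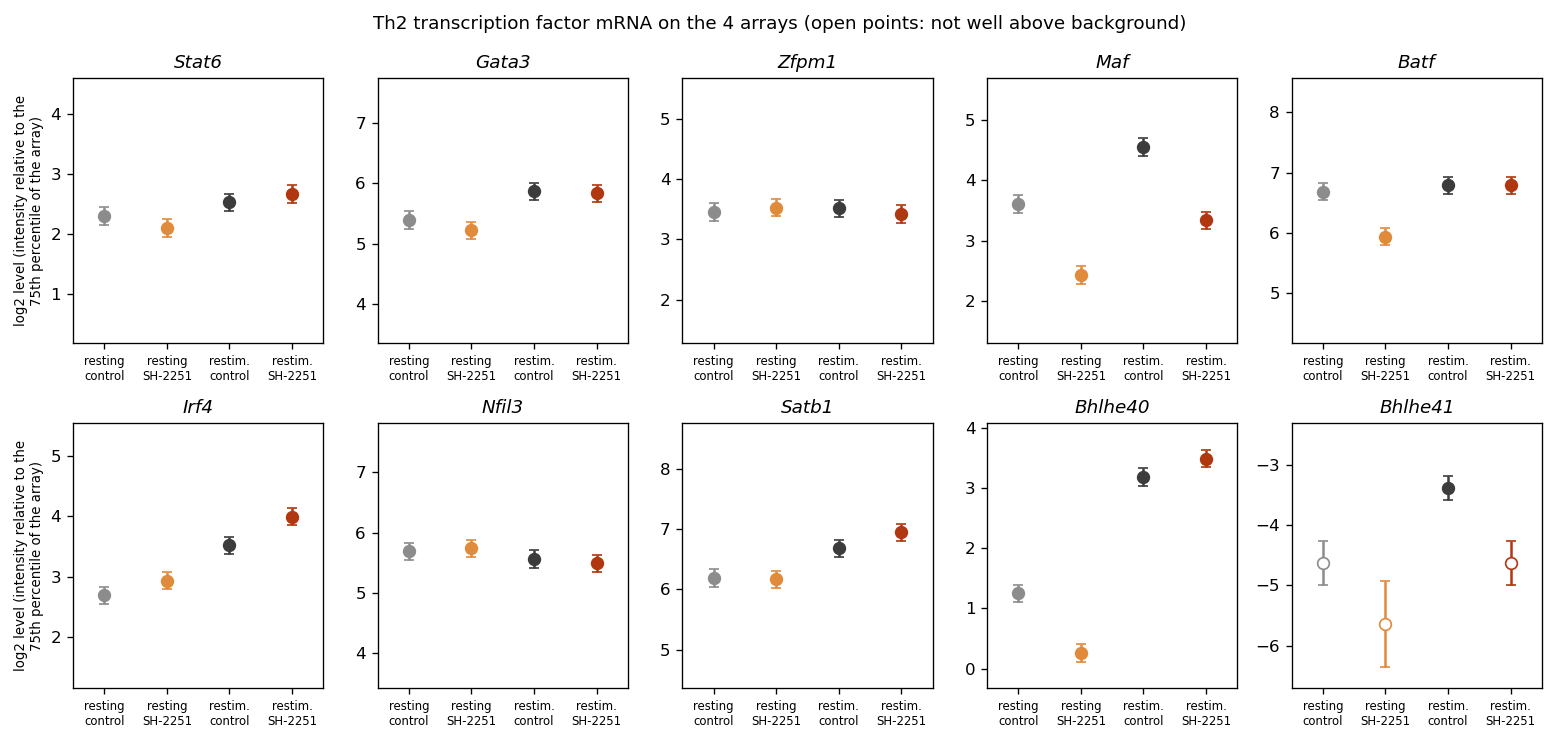
Log2 level of each gene, by its brightest probe, on each of the 4 arrays, with 0 at the array's own 75th percentile. Bars are the technical SD, open points were not well above background, and every panel spans the same number of log2 units around its own middle. Maf lay lower on both SH-2251 arrays than on the control array of the same state, and Bhlhe40 lay higher on both restimulated arrays than on both resting arrays.

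Maf was the only one of the 10 genes that was at least 2-fold lower with SH-2251 in both resting and restimulated cells. Its level was 3.60 in resting control cells, 2.43 in resting SH-2251-treated cells, 4.56 in restimulated control cells and 3.34 in restimulated SH-2251-treated cells. The SH-2251-treated cells were thus below the control cells in either state, and restimulated SH-2251-treated cells did not reach the level of resting control cells. The difference was -1.17 in resting cells, which left 44.3% of the control signal, and -1.22 in restimulated cells, which left 43.0%. These differences ranked 188 among the decreases of 11874 genes measured on both resting arrays and 145 among those of 11812 genes measured on both restimulated arrays. Of the genes compared in both states, 1.37% were at least 2-fold lower in both.

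The second Maf probe had levels of -0.99, -2.14, -0.05 and -1.48 in the same order, and differed by -1.15 between the resting and -1.43 between the restimulated arrays. Both probes therefore showed the same direction and at least a 2-fold difference in both states. Restimulation left the distance between treated and control cells almost as it was, since the level was 1.93-fold higher after restimulation in control cells and 1.88-fold higher in SH-2251-treated cells. The treatment difference in restimulated cells was shifted by -0.04 from that in resting cells, with a technical SD of 0.289. In bulk RNA, fewer Maf-expressing cells and less Maf mRNA per cell cannot be told apart.

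**Figure D2:**
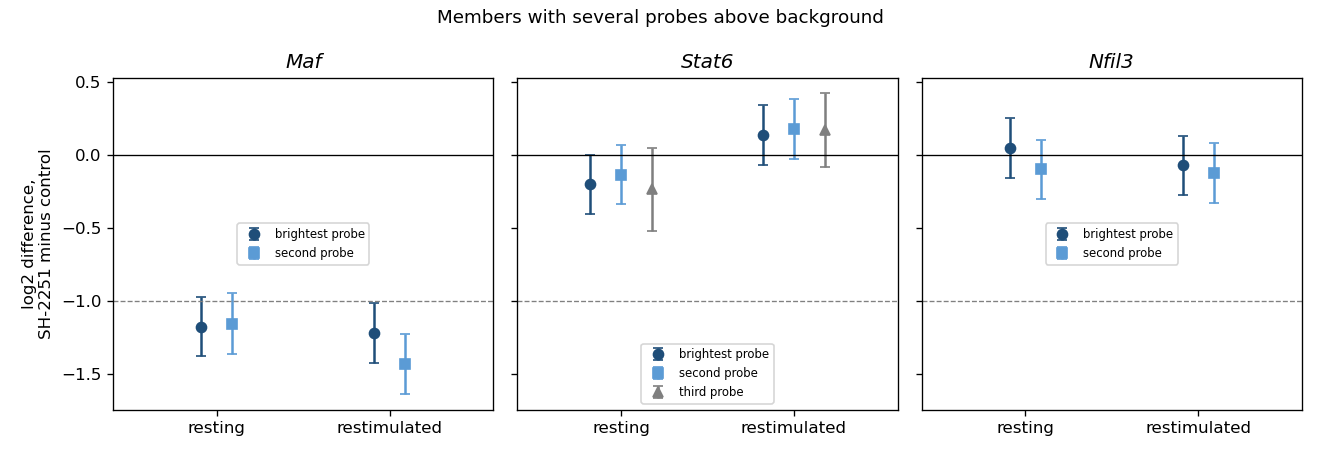
Log2 difference, SH-2251 minus control, for every probe of Maf, Stat6 and Nfil3, in resting and restimulated cells, with the technical SD as bars and 2-fold as a dashed line. Both Maf probes lie below -1 in both states, and all Stat6 and Nfil3 probes lie between -0.23 and 0.18.

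Stat6 and Gata3, the start of the IL-4 pathway, differed little between SH-2251-treated and control cells. Gata3 had levels of 5.39 in resting control, 5.22 in resting SH-2251-treated, 5.87 in restimulated control and 5.83 in restimulated SH-2251-treated cells. The treatment difference was -0.17 in resting cells and -0.03 in restimulated cells, both smaller than the technical SD. The restimulated arrays were the higher ones, by 0.47 without and 0.61 with SH-2251. Over all ways of processing tried, the resting difference of Gata3 ranged from -0.48 to -0.02 and the restimulated one from -0.03 to 0.05.

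Stat6 had levels of 2.30, 2.10, 2.53 and 2.67 in the same order. Its treatment differences of -0.20 in resting and 0.14 in restimulated cells were within the technical SD. Its 2 other probes gave -0.13 and -0.23 in resting and 0.18 and 0.17 in restimulated cells, so that all 3 probes were slightly below control in resting cells and slightly above it in restimulated cells. The probe spotted 10 times had mean levels of 1.06, 0.93, 1.32 and 1.497, and the treatment steps were larger than the SD between its spots. That SD does not cover the difference between cultures. After restimulation Stat6 was higher by 0.22 without and by 0.56 with SH-2251.

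Zfpm1 was the steadiest of the 9 genes measured on all 4 arrays. Its levels of 3.45, 3.53, 3.51 and 3.42 spanned 0.11, which is less than the technical SD of a single difference. Nfil3, which encodes a basic leucine zipper repressor, spanned 0.25, from 5.74 in resting SH-2251-treated cells to 5.49 in restimulated SH-2251-treated cells. Its treatment differences were 0.05 in resting and -0.07 in restimulated cells, and its second probe gave -0.10 and -0.12. The sign turned with the way the arrays were processed for Nfil3 in both states and for Zfpm1 in resting cells.

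Batf and Irf4, whose products bind composite sites as a complex with JUN proteins, had different patterns. Batf was below control in resting cells and level with it in restimulated cells, and Irf4 was slightly above control in both states. Batf had a level of 6.68 in resting control cells, 5.94 in resting SH-2251-treated cells and 6.79 in both restimulated groups. The resting SH-2251 array stood below the other 3, which lay within 0.11 of each other. The difference in resting cells was -0.74 with 59.7% of the control signal left, and in restimulated cells it was -0.00038. Batf therefore differed little after restimulation of control cells, by 0.11, and was 1.80-fold higher after restimulation of SH-2251-treated cells. Under a model-based background correction (normexp) the resting difference was -1.01, past 2-fold, and with unevenly backgrounded spots removed it was -0.72.

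Irf4 had levels of 2.69 in resting control, 2.93 in resting SH-2251-treated, 3.52 in restimulated control and 4.00 in restimulated SH-2251-treated cells. The treatment difference was 0.24 in resting and 0.48 in restimulated cells, both above the technical SD and neither near 2-fold. In resting cells it was -0.06 under normexp, and 0.19 with those spots removed. Irf4 was 1.78-fold higher after restimulation in control cells and 2.09-fold higher in SH-2251-treated cells, and under quantile normalization the second value, as a log2 difference, was 0.97, just inside 2-fold.

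The upstream sequences of both genes are shown side by side because their products act together while their levels differed in pattern. RefSeq promoter entries were found for 8 of the 10 genes, all but Maf and Bhlhe40, and the 250 bases before the start site were searched on both strands for 9 motifs. Capitals mark the matches. The Batf sequence is chr12:85686470-85686719 and the Irf4 sequence chr13:30748983-30749232 of GRCm38, both on the plus strand.
Batf: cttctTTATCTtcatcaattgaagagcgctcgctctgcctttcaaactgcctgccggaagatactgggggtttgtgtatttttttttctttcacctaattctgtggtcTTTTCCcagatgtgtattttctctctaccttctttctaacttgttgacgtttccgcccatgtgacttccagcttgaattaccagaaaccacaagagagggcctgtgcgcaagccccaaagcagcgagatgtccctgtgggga
Irf4: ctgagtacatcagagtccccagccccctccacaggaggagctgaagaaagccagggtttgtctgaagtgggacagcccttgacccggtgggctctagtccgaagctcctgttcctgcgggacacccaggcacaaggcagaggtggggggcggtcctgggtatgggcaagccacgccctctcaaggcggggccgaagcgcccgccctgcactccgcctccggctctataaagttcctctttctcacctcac
The Batf sequence holds the GATA motif AGATAA, which begins 245 bases before the start site, and the NFAT motif GGAAAA at 142 bases, both as their reverse complements, with no overlap between them. AGATAA is found in 9.99% and GGAAAA in 20.4% of the 32851 promoters of the same length. The Irf4 sequence holds none of the 9 motifs in this window. Of the motifs named for factors of this group, the STAT6 motif (TTC and GAA around a 4-base spacer), TTACGTAA for NFIL3 and the IRF motif (GAAA repeated after a 2-base spacer) were in none of the 12 promoters of these genes, compared with 5.85%, 0.113% and 2.98% of all promoters. AP-1 (TGANTCA), CRE (TGACGTCA) and STAT5 (TTCNNNGAA) matches were also in none of the 12, and are in 6.75%, 1.55% and 7.02% of all promoters. GGAAAA was in 5 of the 12, including 3 of the 5 Satb1 windows, of which some overlap. These are matches of letters and no binding was measured.

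Satb1 encodes a chromatin organizer that is induced during Th2 activation. Its levels were 6.19 in resting control, 6.16 in resting SH-2251-treated, 6.68 in restimulated control and 6.95 in restimulated SH-2251-treated cells. The 2 resting arrays differed by -0.02, a sign that turned with the processing, and the restimulated arrays by 0.27, just above the technical SD. Both restimulated arrays were above both resting arrays, by 0.49 without and by 0.78 with SH-2251.

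Bhlhe40 and Bhlhe41 encode paralogous basic helix-loop-helix repressors, also called DEC1 and DEC2, of which Bhlhe41 is known to promote Th2 differentiation. Bhlhe40 showed the widest range of the 9 genes measured on all arrays. Its levels were 1.25 in resting control, 0.26 in resting SH-2251-treated, 3.18 in restimulated control and 3.49 in restimulated SH-2251-treated cells. It was thus lower with SH-2251 in resting cells, by -0.99 with 50.2% of the control signal left, and higher in restimulated cells, by 0.30. The first value lies just inside 2-fold and did not reach it under any other way of processing, where it lay between -0.99 and -0.92. It ranked 278 among the decreases of the resting pair. The step from the resting to the restimulated treatment difference was 1.30 with a technical SD of 0.289. Restimulation was accompanied by a 3.81-fold higher signal in control cells and a 9.37-fold higher signal in SH-2251-treated cells, which ranked 205 of 11855 and 61 of 11766 among the increases.

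Bhlhe41 was detected on the restimulated control array only. The level of its brighter probe was -3.38 there, and -4.63 in resting control, -5.64 in resting SH-2251-treated and -4.63 in restimulated SH-2251-treated cells, where it was not well above background. On this scale it was 2.37-fold lower with SH-2251 in restimulated cells, and 2.37-fold higher after restimulation of control cells. Both are differences from a dim signal, with a technical SD of 0.42, and not lower limits. The dim signals were used as they were, since they lay above the lowest signal that cleared background on their arrays (-4.74 and -4.72). Neither call held under normexp, a model-based background correction, where the log2 differences were -0.53 and 0.38, also with unevenly backgrounded spots removed. The dimmer probe did not clear background anywhere, with levels from -7.04 to -6.71. Both 2.37-fold values rest on 1 dim probe that cleared background on 1 array, with an intensity of 47.8 units. With the mean of both probes the differences were set to 0 by rule and were not measured. That mean was below the lowest signal that cleared background, which stood in for the dim array.

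The Bhlhe41 promoter is shown because it holds the E-box CACGTG, the sequence that both of these factors bind. It lies at chr6:145865421-145865670 of GRCm38 on the minus strand.
Bhlhe41: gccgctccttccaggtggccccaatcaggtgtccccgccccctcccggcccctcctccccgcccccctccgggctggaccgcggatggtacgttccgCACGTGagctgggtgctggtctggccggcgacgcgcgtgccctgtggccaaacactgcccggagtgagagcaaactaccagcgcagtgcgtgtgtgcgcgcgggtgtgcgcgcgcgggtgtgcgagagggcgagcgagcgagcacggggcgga
The capitals mark CACGTG, which begins 153 bases before the start site. It was found in 6.02% of all promoters and in 1 of the 12 promoters of these genes.

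In resting cells 1 of the 9 that could be compared was at least 2-fold lower, Maf, and none was 2-fold higher, where 2.90% and 2.22% of all genes were (5.12% in either direction). In restimulated cells 2 of 10 were at least 2-fold lower, Maf and Bhlhe41, and none was 2-fold higher, where 2.78% and 2.65% of all genes were (5.43% in either direction). No member was 2-fold higher in both states, where 1.23% of all genes were. The median difference of the group was -0.17 in resting and -0.02 in restimulated cells, compared with -0.06 for all genes in either state.

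After restimulation of control cells 2 of 10 were at least 2-fold higher, Bhlhe40 and Bhlhe41, where 7.20% of all genes were, and none was 2-fold lower, where 7.34% were (14.5% in either direction). After restimulation of SH-2251-treated cells 2 of 9 were at least 2-fold higher, Bhlhe40 and Irf4, where 7.09% of all genes were, and none was 2-fold lower, where 6.98% were (14.1% in either direction). Bhlhe40 was 2-fold higher in both, as were 5.31% of all genes, and no member was 2-fold lower in both, as 4.87% were. The group median was 0.48 without and 0.78 with SH-2251, and the medians of all genes were -0.06 and -0.05. The treatment and restimulation comparisons share arrays, so the resting SH-2251 array, low for Batf and Bhlhe40, enters 2 of them.

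Among the genes measured on all 4 arrays, those with the pattern nearest to Maf were Akr1b8, an aldo-keto reductase, at a distance of 0.096 over the 4 levels after each gene's own mean was removed, and Hsd17b7, a sterol synthesis enzyme, at 0.198. The median distance from Maf over 11509 genes was 1.56. The nearest to Irf4 were Mtap at 0.059 and Txnrd1, a thioredoxin reductase, at 0.073, with a median of 1.17. The nearest to Bhlhe40 were Zc3h12c at 0.320 and Sphk1, a sphingosine kinase, at 0.357, with a median of 2.75. With 4 points, such nearness is a description only.

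The partners and regulators of these factors were read from a list of 31 genes, of which 30 were named on the arrays and all 30 were well above background throughout. In resting cells 3 were at least 2-fold lower with SH-2251, namely Gfi1, Zbtb32 and Fos, and none was 2-fold higher. In restimulated cells 2 were lower, Gfi1 and Zbtb32, and none was higher. Zbtb32 encodes a zinc finger protein known to bind GATA-3 and repress its activity. Its level was 1.28 in resting control, -0.996 in resting SH-2251-treated, 4.47 in restimulated control and 2.68 in restimulated SH-2251-treated cells, with differences of -2.27 and -1.79. SH-2251-treated cells were below control cells in either state, as for Maf, and both restimulated groups were above both resting groups. Gfi1, the repressor on which the study centres, differed by -5.39 and -2.49.

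The dimerization partners of BATF were closer to control. Junb lay at -0.55 in resting and -0.09 in restimulated cells, Jun by 0.01 and -0.29, and Batf3, a paralog of Batf, by -0.84 and -0.38. The cofactors of chromatin opening Chd4 and Men1 differed by between -0.27 and 0.12. After restimulation 6 of the 30 were at least 2-fold higher in control cells (Zbtb32, Stat5a, Jun, Cebpb, Junb and Notch1) and 9 in SH-2251-treated cells, and Nfatc1 was 2-fold lower in both. Among all genes 7.20% and 7.09% were 2-fold higher, and 7.34% and 6.98% 2-fold lower. The median of the list with SH-2251 was -0.25 in resting and -0.07 in restimulated cells, against -0.06 for all genes in either state.

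Of 16 receptor and signalling genes of the IL-4 pathway, 15 were named, and the only one at least 2-fold different with SH-2251 was Socs3, a feedback inhibitor of cytokine signalling, at -1.48 in resting cells and -0.83 in restimulated cells. Il4ra, the IL-4 receptor chain, differed by -0.11 and 0.03, Jak1 by -0.04 and 0.22, Jak3 by -0.35 and -0.11, and Il2rb, a chain of the IL-2 receptor, by -0.82 and -0.40. After restimulation of control cells Jak2 was higher by 1.97 and Il2ra by 1.06, and the difference of Il4ra was -1.02. The list had medians of -0.04 in resting and 0.11 in restimulated cells, against -0.06 for all genes in either state. With SH-2251, 5.12% of all genes differed at least 2-fold in resting and 5.43% in restimulated cells.

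The effector genes of Th2 cells, which these factors are known to control, differed more widely. Of 18 that could be compared in resting cells 6 were at least 2-fold lower with SH-2251 (Il5, Il13, Il10, Il1rl1, Pparg and, by a bound, Areg) and Il31 was 2-fold higher. Of 20 in restimulated cells 5 were lower (Il5, Il1rl1, Ccr3, Pparg and Cyp11a1) and Il9 was higher by a bound. Il4 and Il10 are known targets of c-Maf. Il4 had levels of 4.69, 4.59, 8.25 and 8.02, with differences of -0.10 and -0.23. Il10 had levels of 4.11, 2.40, 6.29 and 5.30, with differences of -1.71 and -0.98. Il10 was thus 3.27-fold below control in resting cells and just inside 2-fold in restimulated cells. The list had medians of -0.60 in resting and -0.21 in restimulated cells, against -0.06 for all genes in either state.

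Regulators of other T cell lineages were compared as a group of 16. With SH-2251, Ahr was at least 2-fold lower in resting cells, and Ikzf2 and Id3 were at least 2-fold higher in both states, for Ikzf2 by a bound in restimulated cells. Id3, an inhibitor of E proteins, differed by 1.89 and 1.23. The medians were -0.26 in resting and 0.04 in restimulated cells.

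All 7 T cell markers named were well above background on all 4 arrays and none differed 2-fold with SH-2251. In resting cells all 7 lay below control, with a median of -0.21 against -0.06 for all genes. In restimulated cells 3 lay below and 4 above control. Of 8 B cell markers 5 were above background on each array, with Pax5, Blk and Ebf1 below it on all 4, and the log2 of their summed level was 2.24 in resting control, 2.43 in resting SH-2251-treated, 1.92 in restimulated control and 2.54 in restimulated SH-2251-treated cells. Ms4a1 was higher with SH-2251 by 0.74 and 1.21. Of the 5 B cell markers compared, 2 lay below and 3 above control in resting cells, and 1 below and 4 above in restimulated cells. Of the 6 NK and CD8 T cell markers named, 3 were below background on all arrays, the summed level was -1.64, -0.95, -1.503 and -0.75, and Cd8a was higher with SH-2251 by 1.45 and 0.97. Of 9 myeloid markers Lyz2, Itgam, S100a8, S100a9 and Spi1 were below background on all arrays, and the summed level was 1.45, 1.34, 1.53 and 1.62. The 4 myeloid markers compared all lay below control in resting cells, and 1 lay below and 3 above it in restimulated cells. The part of these other cells in the differences of Maf, Batf and Bhlhe40 was not tested.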

How the data were processed

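RNA from 4 groups of mouse Th2 cells, 1 array each, was labelled with Cy3 and hybridised to Agilent whole mouse genome arrays on 1 slide. The authors deposited scanner intensities, which Feature Extraction 10.7.3.1 had corrected for background and spatial trend, and a table of log2 values normalized by the authors with the Subio Platform. Between 99.6% and 99.7% of the deposited log2 values lay within 0.01 of the log2 intensity minus 1 constant for each array, and their 75th percentile is 0.00.

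Here control spots and spots marked as outliers were removed, spots of a probe were averaged on the log2 scale, and each array's 75th percentile (499 to 614 intensity units) was subtracted. No spot was saturated, and 56.0% to 56.7% of probes were well above background. Probes were named through RefSeq accessions (GRCm38.p6 table) for 27198 of 41174 probes. The array design uses another build (mm9), so no probe coordinates are given, and promoter coordinates are those of the RefSeq table. A gene is represented by its brightest probe. A gene entered a comparison if it was well above background on at least 1 array. Where the other array was dim, the larger of the dim signal and the array's lowest signal that cleared background stood in for it. The result is a bound only where that lowest signal was used. The call is 2-fold. Precision is limited by having 1 array per group.

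The members and lists were chosen with earlier results of these data known. Named genes are the members, list genes at least 2-fold different in any comparison with up to 4 examples a list, and the 2 nearest genes of members ranging over at least 1 log2 unit, and not every one is printed. Some list genes are not reported here. Lists covered partners, the IL-4 receptor pathway, Th2 effectors, other lineages, paralogs and markers of T, B, NK and CD8 T, and myeloid cells. The steps were tested on simulated data, made from genes well above background on both arrays of a comparison. Noise was the technical SD only, and the planted changes were larger than 2-fold. Differences between cultures, changes close to 2-fold and dim genes were therefore not covered. Python 3.11.15, numpy 2.4.6, pandas 2.3.3, matplotlib 3.10.9, R 4.3.3 and limma 3.58.1 were used.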

Additional observations from a re-analysis of the deposited data

Results flagged for a closer look

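The difference between SH-2251-treated and control cells had opposite signs in resting and restimulated cells, each above its technical SD, for 1 of the 10 transcription factors and for 6 genes of the lists. The difference between the states was not tested. The share of all genes that meet this rule is not given, so these counts are a description only. For Bhlhe40 the difference was -0.99 in resting and 0.30 in restimulated cells, a step of 1.30. Irf5 went from -0.32 to 0.65, a step of 0.97, Stat5a from -0.27 to 0.48, a step of 0.75, Irf1 from -0.22 to 0.43, a step of 0.65, and Fosl2 from -0.25 to 0.22, a step of 0.47. Cebpb went from 0.46 to -0.34, a step of -0.80, and Bcl6 from 0.56 to -0.21, a step of -0.77.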

How the results depend on the processing

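Each condition has 1 array, so no array could be left out, and no paired analysis was possible because a single array leaves nothing to pair. The authors' values and median centring left all 38 differences of the transcription factors within their technical SD. Under normexp 17 of 38 moved by more. On the resting SH-2251 array its estimate of mean background was -151.7, with 4 spots under background, against 7.36 to 8.23 elsewhere. Under it the genes 2-fold lower with SH-2251 were 2 in resting and 1 in restimulated cells, and restimulation gave 1 higher without and 5 higher with SH-2251. With unevenly backgrounded spots removed, which was chosen after seeing the data, 2 of 38 moved, both of Bhlhe41, 1 gene was lower in restimulated cells and 1 higher after restimulation of control cells. The mean of all probes, and the demand that both arrays be well above background, each gave 1 lower in restimulated cells and 1 higher after restimulation of control cells, since Bhlhe41 drops out by construction. Quantile normalization gave 1 higher after restimulation of SH-2251-treated cells, without Irf4, and moved the median of all genes to -0.11 in both restimulation comparisons. With neither filter nor bound 2 were lower in resting cells and 3 higher after restimulation of SH-2251-treated cells, the added one being the dim Bhlhe41 each time. At 1.5-fold 3 were lower in resting cells, and restimulation gave 4 higher without and 6 higher with SH-2251. At 3-fold none was lower with SH-2251 in either state (0 and 0) and 1 was higher after restimulation of either culture. The share of all genes called is given for the main 2-fold setting only, so the counts under other settings have no such share beside them. Over all ways of processing, Maf ranged from -1.39 to -1.12 in the resting and from -1.33 to -1.16 in the restimulated state. Signal over background limits Bhlhe41 alone among the 10 genes.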

Other observations

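Among 24 paralogs of the 10 transcription factors, 7 were not well above background on any array. Of the 17 compared in resting cells, Irf8 was 2-fold lower with SH-2251, and of the 17 in restimulated cells, Hlf was lower by a bound. Irf8, an interferon regulatory factor that is close to Irf4 in sequence, had levels of 2.51 in resting control, 1.05 in resting SH-2251-treated, 3.84 in restimulated control and 2.94 in restimulated SH-2251-treated cells, with differences of -1.46 and -0.90. It lay below control in both states, whereas Irf4 lay above it. Maff, a small Maf protein without an activation domain, was higher after restimulation by 2.66 without and 3.24 with SH-2251, and its treatment differences were -0.37 and 0.20. Dbp, a relative of Nfil3, was lower after restimulation by -1.74 in both. The medians of the list with SH-2251 were -0.22 in resting and -0.13 in restimulated cells, against -0.06 for all genes in either state. At least 2-fold lower with SH-2251 were 2.90% of all genes in resting and 2.78% in restimulated cells.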
